A study of Mus musculus with 2 samples.

Results

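The 6 genes described here encode transcription factors of alveolar type II (AE2) cell identity and plasticity: Nkx2-1, Foxa1, Foxa2, Cebpa, Etv5 and Sox4. They were taken by Ensembl identifier, not by their values, from the 31053 gene rows of each count table, and all 6 had a row and passed the low-count filter in AE2-like cells. The study sorted EpCAM-positive lung cells from C57BL/6JRj mice and counted their RNA molecules cell by cell. The 4 groups were 3-month-old (young) mice 24 h after 2.5 mg/kg lipopolysaccharide (LPS), young mice 24 h after saline (young control), 18-month-old (old) mice 24 h after the same LPS dose, and old mice 24 h after saline (old control). LPS is a component of the bacterial cell wall that is used to model acute lung injury. No genotype other than the strain is given, and the number of mice behind each library is not given.

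AE2 cells make and recycle surfactant and act as progenitors that can renew the alveolar epithelium. NKX2-1 is the homeodomain factor on which lung epithelial fate and surfactant gene expression depend. The forkhead proteins FOXA1 and FOXA2 open chromatin in foregut derivatives and act together with NKX2-1 at surfactant genes. C/EBP alpha is a leucine-zipper factor of lung maturation and lipid metabolism, ETV5 is an ETS factor downstream of FGF receptor and ERK signalling that AE2 cells need to keep their identity, and SOX4 is an HMG-box factor active in developing and regenerating epithelia.

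The genes lie at separate loci (annotation GENCODE M21, GRCm38), and each is protein coding. Nkx2-1 (ENSMUSG00000001496) is at chr12:56531958-56536908 on the minus strand, and Foxa1 (ENSMUSG00000035451) is on the same chromosome at chr12:57540628-57546916, also on the minus strand. Foxa2 (ENSMUSG00000037025) is at chr2:148042877-148046969 on the minus strand, and Cebpa (ENSMUSG00000034957) is at chr7:35119293-35121928 on the plus strand. Etv5 (ENSMUSG00000013089) is at chr16:22381309-22439719 and Sox4 (ENSMUSG00000076431) at chr13:28948919-28953713, both on the minus strand. Nkx2-1, Cebpa and Sox4 each overlap an annotated gene on the opposite strand. Over all AE2-like cells Nkx2-1 had 16685 UMIs and its partner Gm26973 had 48, Cebpa had 10412 and Gm45091 had 5, and Sox4 had 2732 and Gm26735 had 135. Whether the counting used strand is not stated, so reads of a pair cannot be told apart with certainty.

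The sequences at the start sites are shown for 5 of the 6 genes as a description, and shared control of the genes was not tested. The Foxa2 windows and the second Etv5 window were searched for motifs but are not shown. The windows are RefSeq sequences (GRCm38.p6) from 250 bases before to 50 after an annotated start, in lower case with motif matches in capitals.
Sox4, chr13:28953650-28953949, minus strand: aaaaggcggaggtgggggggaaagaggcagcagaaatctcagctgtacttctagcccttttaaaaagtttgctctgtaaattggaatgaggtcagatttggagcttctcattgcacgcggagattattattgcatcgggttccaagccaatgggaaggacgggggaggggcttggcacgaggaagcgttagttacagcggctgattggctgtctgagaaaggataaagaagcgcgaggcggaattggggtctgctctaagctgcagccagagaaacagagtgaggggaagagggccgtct
Etv5, first of its start sites, chr16:22439521-22439820, minus strand: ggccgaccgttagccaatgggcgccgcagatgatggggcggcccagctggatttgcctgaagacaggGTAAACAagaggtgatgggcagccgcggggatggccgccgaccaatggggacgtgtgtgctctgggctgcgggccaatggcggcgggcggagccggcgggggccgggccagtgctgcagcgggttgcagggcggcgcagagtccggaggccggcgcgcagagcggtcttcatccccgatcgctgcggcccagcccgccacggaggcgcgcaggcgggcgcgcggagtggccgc
Cebpa, chr7:35119043-35119342, plus strand: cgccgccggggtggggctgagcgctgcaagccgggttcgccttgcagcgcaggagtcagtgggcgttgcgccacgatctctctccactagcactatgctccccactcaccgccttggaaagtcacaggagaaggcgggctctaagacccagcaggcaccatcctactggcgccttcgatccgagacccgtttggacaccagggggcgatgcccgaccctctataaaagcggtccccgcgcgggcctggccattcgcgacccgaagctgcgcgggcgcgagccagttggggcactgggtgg
Nkx2-1, chr12:56536859-56537158, minus strand: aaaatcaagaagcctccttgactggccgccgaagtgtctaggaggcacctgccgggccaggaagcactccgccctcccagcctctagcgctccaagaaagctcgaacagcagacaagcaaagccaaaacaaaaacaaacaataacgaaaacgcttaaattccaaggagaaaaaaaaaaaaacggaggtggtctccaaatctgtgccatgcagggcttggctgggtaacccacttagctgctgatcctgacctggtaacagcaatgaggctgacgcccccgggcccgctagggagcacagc
Foxa1, chr12:57546062-57546361, minus strand: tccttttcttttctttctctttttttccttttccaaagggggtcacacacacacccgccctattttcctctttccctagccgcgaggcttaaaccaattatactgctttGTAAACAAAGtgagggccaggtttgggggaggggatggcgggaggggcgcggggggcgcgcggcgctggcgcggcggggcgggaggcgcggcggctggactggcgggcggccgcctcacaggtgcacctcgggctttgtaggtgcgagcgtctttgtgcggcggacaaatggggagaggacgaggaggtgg

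Motifs of the members' own protein families were searched on both strands of all 9 member windows and of 32851 RefSeq promoters. A forkhead match (TGTTTNC) was present in 2 of the 9 member windows, against 20.5% of all promoters. In Etv5 it began at base 68 of the window. In Foxa1 it began at base 110 and overlapped a SOX match (AACAANG, 1 of 9 windows, 14.1% of all promoters) that began at base 113. An ETS match (GGAAGT, 23.8% of all promoters) was present in 2 windows, the other Etv5 start and a Foxa2 start. No member window held the NK2-type homeodomain motif (CACTTNA, 11.5% of all promoters) or the C/EBP motif (TTGCNNAA, 10.8%), and the Sox4, Cebpa and Nkx2-1 windows held none of the motifs. A match describes the letters of the window only.

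The 4 groups were hashed, pooled on a single 10x lane, and the experiment was repeated on a separate lane, which gave 8 libraries (replicates 1 and 2 of each group). The libraries held 6228266 to 15435789 unique molecular identifiers (UMIs), and 11233 of 14048 barcodes were kept. No barcode was shared between libraries of a lane, and at most 1 between any pair of libraries of different lanes. Clustering gave 8838 AE2-like cells (78.7%), 738 to 1416 per library, in which all 12 AE2 markers were detected in every cluster. The old LPS 2 library stood apart from the other LPS libraries: 28.04% of its AE2-like cells lay in clusters made up mostly of control cells, against 7.64% in young LPS 1, 15.7% in young LPS 2 and 4.95% in old LPS 1. In the AE2-like sums, alveolar macrophage markers summed to 3.55 to 12.5 CPM (UMIs per 1000000 UMIs of the sum). Monocyte/macrophage markers summed to 9.81 to 20.3 CPM over the LPS libraries, against 21.8 to 46.8 CPM over the control libraries, and the monocyte/macrophage marker F13a1 had no UMI. Over the LPS libraries the club/secretory markers summed to 1704 to 3400 CPM and the platelet markers to 133 to 203 CPM, against 4423 to 7600 CPM and 15.1 to 23.9 CPM over the control libraries. The platelet markers Gp9, Gp1bb and Treml1 had no UMI. Their part in the results was not tested. In sums over cells such as these, fewer cells expressing a gene and less RNA per cell cannot be told apart. The UMIs per cell and the share of cells with a UMI are given separately below.

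In AE2-like cells all 6 factors were lower after LPS than after saline at both ages. In none of them did an LPS library overlap a control library, but the share of all genes separated in this way was not counted. Sox4 was 7.12-fold lower in young mice and 4.91-fold lower in old mice, Etv5 3.47-fold and 3.68-fold, and Cebpa 2.42-fold and 2.57-fold. Nkx2-1, Foxa1 and Foxa2 were 1.40-fold to 1.87-fold lower. Values are CPM of the UMIs summed over the AE2-like cells of a library, tested across libraries with edgeR's quasi-likelihood test and Benjamini-Hochberg adjustment over all 11378 genes tested. A gene is called when its adjusted p is under 0.05. Of all genes tested, 18.4% were called lower in young and 23.3% in old mice, and 21.9% and 25.1% higher (40.3% and 48.4% in either direction). The 2 libraries of a group come from repeat experiments, but since the number of mice is not given the p-values measure the spread between these libraries.

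**Figure D1:**
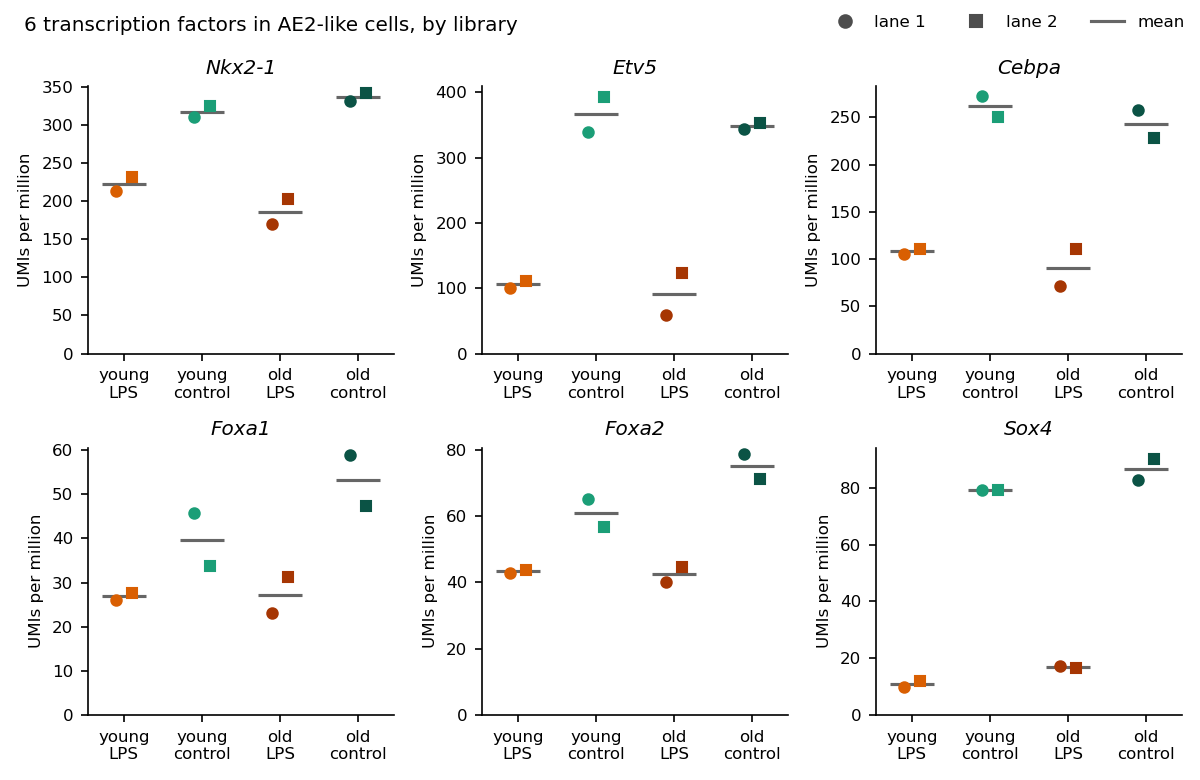
CPM of each factor (y axis, from 0) in the AE2-like cells of each of the 8 libraries, grouped as young LPS, young control, old LPS and old control. Circles are lane 1, squares lane 2 and lines the means of 2 libraries. In every panel the LPS points lie below the control points of both ages.

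Nkx2-1, the factor on which lung epithelial fate depends, had 213 and 232 CPM in young LPS libraries, against 310.3 and 325 CPM in young control libraries. In old mice it had 169.6 and 202 CPM after LPS, against 332 and 342 CPM after saline. The 4 LPS libraries were all below the 4 control libraries, and old LPS 1 was the lowest. The log2 fold change was −0.51 ± 0.10 in young mice (adjusted p = 6.18e-04) and −0.81 ± 0.10 in old mice (adjusted p = 6.11e-06).

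Foxa1, a forkhead pioneer factor, had 26.1 and 27.7 CPM in young LPS libraries, against 45.6 and 33.8 CPM in young controls. Old mice had 23.0 and 31.3 CPM after LPS, against 58.8 and 47.4 CPM after saline. The groups did not overlap, although the highest LPS library and the lowest control library differed by less than the control libraries did among themselves. Its log2 fold change was −0.54 ± 0.18 in young mice (adjusted p = 0.0368) and −0.91 ± 0.17 in old mice (adjusted p = 0.00107). The young call was lost with the lane as a block (adjusted p = 0.0597), in DESeq2 (0.0560) and when young LPS 1 (0.160), young LPS 2 (0.108) or young control 1 (log2 −0.33, adjusted p = 0.222) was left out.

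Foxa2, its paralog with overlapping functions, had 43.0 and 43.9 CPM in young LPS libraries, against 65.2 and 56.8 CPM in young controls. Old libraries had 40.2 and 44.8 CPM after LPS, against 78.8 and 71.3 CPM after saline. The 4 LPS libraries lay within a narrow band under every control library. The log2 fold change was −0.48 ± 0.11 in young mice (adjusted p = 0.00254) and −0.76 ± 0.11 in old mice (adjusted p = 2.10e-05).

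Cebpa, the lung maturation and lipid factor, had 104.8 and 111 CPM in young LPS libraries, against 273 and 250.4 CPM in young controls. In old mice it had 71.7 and 110.1 CPM after LPS, against 257 and 228 CPM after saline. Every control library had over 2 times the level of every LPS library, and old LPS 1 was again the lowest. Its log2 fold change was −1.28 ± 0.17 in young mice (adjusted p = 3.37e-04) and −1.36 ± 0.17 in old mice (adjusted p = 1.62e-04).

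Etv5, the ETS factor linked to FGF-ERK signalling, had 99.9 and 111 CPM in young LPS libraries, against 339.7 and 393 CPM in young controls. In old mice it had 59.5 and 123 CPM after LPS, against 344 and 353 CPM after saline. The 2 old LPS libraries differed more than those of any other group, and old LPS 1 had the lowest level of all. Its log2 fold change was −1.80 ± 0.35 in young mice (adjusted p = 0.0153) and −1.88 ± 0.35 in old mice (adjusted p = 0.0110). The young call was lost without young LPS 1 (adjusted p = 0.0894), young LPS 2 (0.0708) or young control 2 (0.0572).

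Sox4, the HMG-box factor, had 10.0 and 12.1 CPM in young LPS libraries, against 79.1 CPM in each young control library. In old mice it had 17.3 and 16.7 CPM after LPS, against 82.8 and 90.1 CPM after saline. Both young LPS libraries were below both old LPS libraries, and all 4 were far below every control. The log2 fold change was −2.83 ± 0.12 in young mice (adjusted p = 2.86e-11) and −2.30 ± 0.11 in old mice (adjusted p = 1.03e-10).

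Each lane held all 4 groups, so the LPS effect was also read within a lane, without a test. In young mice it was negative for every factor in both lanes, from −0.29 for Foxa1 in lane 2 to −2.98 for Sox4 in lane 1. In old mice it was negative in both lanes too, from −0.60 for Foxa1 in lane 2 to −2.53 for Etv5 in lane 1. The lanes were farthest apart for old Etv5, which was at −1.52 in lane 2, and for old Cebpa, at −1.84 in lane 1 and −1.05 in lane 2.

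CPM are relative to all RNA counted in the same cells, and AE2-like cells held more UMIs after LPS. Their median UMI count per cell was 7602 and 8249 in young LPS libraries and 8948 and 9082 in old LPS libraries, against 5730 and 6534 in young controls and 5814 and 7088 in old controls. Counted per cell, Sox4 had 0.0764 and 0.0989 UMIs in young LPS libraries, against 0.449 and 0.517 in young controls, and 0.152 and 0.150 in old LPS libraries, against 0.484 and 0.646 in old controls. Etv5 and Cebpa were also lower per cell in every LPS library. Etv5 had 0.524 to 1.11 UMIs per cell after LPS, against 1.93 to 2.57 after saline, and Cebpa 0.631 to 0.992, against 1.50 to 1.64. Nkx2-1 overlapped on this scale, with 1.49 to 1.90 UMIs per cell after LPS, against 1.76 to 2.45 after saline. So did Foxa1, with 0.198 to 0.282 after LPS, against 0.221 to 0.344 after saline, and Foxa2, with 0.327 to 0.404, against 0.370 to 0.512.

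On a scale of UMIs per cell, chosen after seeing the data, the median gene shifted by 0.35 (young) and 0.39 (old) on the log2 scale, against −0.01 for both in CPM. The share of called genes that were higher was then 84.3% in young mice and 83.5% in old mice, against 54.4% and 51.8% in CPM. Between old and young mice it was 72.0% in controls and 74.7% after LPS, against 40.8% and 40.0% in CPM. Sox4 (log2 −2.46 young, −1.90 old), Etv5 (−1.43, −1.47) and Cebpa (−0.90, −0.95) kept their calls at both ages. In young mice Nkx2-1 (−0.14, adjusted p = 0.564), Foxa1 (−0.17, 0.514) and Foxa2 (−0.11, 0.666) lost theirs. In old mice Nkx2-1 (−0.41, 0.0494) and Foxa1 (−0.50, 0.0173) kept theirs and Foxa2 (−0.36, 0.0808) did not. Relative to the median gene, all 6 factors were lower on both scales. Taking off the median gene largely undoes the change of scale, so this is not a separate result.

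The share of AE2-like cells with at least 1 UMI was compared after every cell had been thinned to 2000 UMIs, which left out 3 to 32 shallower cells per library. Sox4 was found in 2.19% and 1.99% of cells in young LPS libraries, against 15.2% and 14.2% in young controls, and in 3.24% and 4.33% in old LPS libraries, against 15.8% and 17.4% in old controls. Etv5 was found in 11.2% to 24.0% of cells after LPS, against 50.2% to 52.2% after saline. For Cebpa the shares were 13.5% to 21.0% after LPS, against 34.3% to 40.6% after saline. The shares of 5 of the 6 factors, all but Foxa1, did not overlap between treatments. How many of all genes were separated in this way was not counted. Nkx2-1 was found in 28.8% to 38.4% of cells after LPS, against 47.3% to 52.0% after saline, and Foxa2 in 7.67% to 8.66%, against 10.5% to 15.7%. Foxa1 shares overlapped, at 4.83% to 6.50% after LPS and 6.37% to 10.99% after saline. Without thinning, the shares of Nkx2-1 were 72.9% to 79.0% after LPS, against 80.4% to 87.4% after saline, and those of Foxa1 were 18.1% to 23.7%, against 20.2% to 28.7%. In 509 dendritic-like cells thinned the same way (median 5446 UMIs before thinning), which should lack most of these factors, the shares were 0.982% for Nkx2-1 and Sox4, 0.786% for Etv5, 0.196% for Foxa1 and 6.48% for Cebpa. Foxa2 was seen in 0 of 509 dendritic-like cells. The Sox4 shares after LPS, 1.99% to 4.33%, exceeded those of dendritic-like cells by the smallest margin of the 6 factors, and Cebpa has a known role in myeloid cells.

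**Figure D2:**
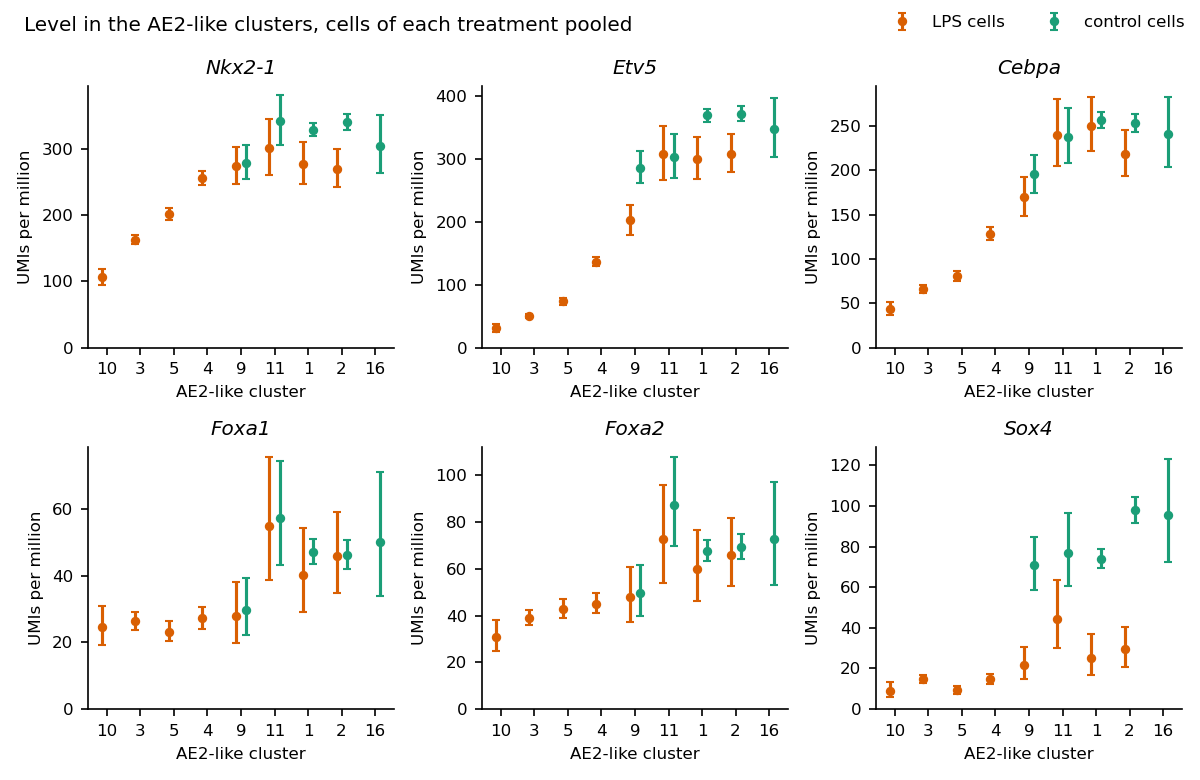
CPM of each factor (y axis) in the AE2-like clusters (x axis, by cluster number), pooled over LPS cells and over control cells with Poisson 95% intervals, for sets of at least 50 cells. In clusters 10, 3, 5 and 4, which are mostly LPS cells, Sox4 is at 9.12 to 14.8 CPM, and the pooled Nkx2-1, Etv5 and Cebpa levels increase from cluster 10 to cluster 4, an order that clusters 3 and 5 do not keep in every library.

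AE2-like cells fell into clusters made up mostly of LPS cells (3, 4, 5 and 10) or mostly of control cells (1, 2, 9, 11 and 16), and none of the 6 factors was among the 2000 genes used for clustering. The values that follow pool cells over libraries and carry no test, since their intervals (Poisson, 95%) cover counting error only. Among LPS cells, Etv5 had 30.5 CPM in cluster 10, led by Cxcl10 and guanylate-binding protein genes, 49.9 CPM in cluster 3, led by neutrophil chemokine genes, 73.8 CPM in cluster 5, led by interferon-induced genes, and 137 CPM in cluster 4. Cebpa had 43.5, 66.2, 80.9 and 129 CPM in the same order, and Nkx2-1 had 106, 163, 202 and 256 CPM. Foxa2 had 30.9, 39.0, 42.8 and 45.1 CPM in this order, while Foxa1 ranged from 23.2 to 27.2 CPM and Sox4 from 9.12 to 14.8 CPM. The pooled values mix libraries in unequal shares, since cluster 3 held 885 and 499 cells of the old LPS libraries and 73 and 66 of the young ones. Within each of the 4 LPS libraries Nkx2-1, Etv5 and Cebpa were lowest in cluster 10 and highest in cluster 4, although cluster 10 held only 11 cells of old LPS 1. Clusters 3 and 5 kept the pooled order in every library for Etv5 alone. Nkx2-1 was higher in cluster 3 than in cluster 5 in both young LPS libraries (228 and 235 CPM, against 207 and 215 CPM), and Cebpa was so in both old LPS libraries (62.2 and 69.5 CPM, against 59.8 and 68.3 CPM).

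The 712 LPS cells that lay in the mostly control clusters were set beside the 4016 control cells of the same clusters. Etv5 had 272 CPM in these LPS cells, against 361 CPM in the control cells, and Cebpa had 214 CPM, against 249.8 CPM. Nkx2-1 had 276 CPM, against 330.1 CPM, and the 2 Foxa genes had 39.8 and 59.6 CPM, against 46.1 and 67.9 CPM. Sox4 had 28.7 CPM (interval 23.9 to 34.1), against 83.4 CPM (79.9 to 87.0). For Etv5 the intervals were 257 to 288, against 354 to 369, and for Nkx2-1 261 to 292, against 323 to 337. Those of Cebpa were 201 to 228, against 244 to 256. None of these overlapped either, while the intervals of Foxa1 and Foxa2 did. In proportion Sox4 was farthest below the control cells. Of the 712 LPS cells 397 came from old LPS 2, and Sox4 ranged from 17.7 to 47.0 CPM by LPS library. Clusters 9 and 11 held only 51.9% and 58.7% control cells. In the 4098 LPS cells of the mostly LPS clusters Sox4 had 12.8 CPM, Etv5 77.1 CPM, Cebpa 84.5 CPM and Nkx2-1 193 CPM. Within those clusters the old LPS libraries were closer to each other than over all AE2-like cells, with Etv5 at 54.5 CPM in old LPS 1 and 77.6 CPM in old LPS 2, and Cebpa at 66.8 and 81.1 CPM.

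Between ages, no factor was called in control mice, where 0.624% of genes were (0.255% higher and 0.369% lower, 71 of 11378, with 1155 at an unadjusted p under 0.05). Foxa1 averaged 53.1 ± 8.0 CPM in old and 39.7 ± 8.3 CPM in young controls (SD, n = 2 each), a log2 fold change of 0.40 (95% interval 0.01 to 0.79, adjusted p = 0.478). Foxa2 averaged 75.1 ± 5.3 CPM in old and 61 ± 6.0 CPM in young controls, a log2 fold change of 0.27 (0.04 to 0.49, adjusted p = 0.411). The lowest old and highest young control libraries were at 47.4 and 45.6 CPM for Foxa1 and at 71.3 and 65.2 CPM for Foxa2. A lack of overlap between 2 and 2 libraries carries little weight, and its share over all genes was not counted. The intervals were −0.16 to 0.25 for Nkx2-1, −0.13 to 0.31 for Sox4, −0.53 to 0.23 for Cebpa and −0.998 to 0.77 for Etv5, so an age difference of Etv5 is only loosely bounded.

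After LPS, Sox4 was the 1 factor called between ages, where 1.61% of genes were called higher, 2.41% lower and 4.02% in either direction. It was higher in old LPS libraries, at 17.3 and 16.7 CPM, than in young LPS libraries, at 10.0 and 12.1 CPM, with a log2 fold change of 0.63 ± 0.13 (adjusted p = 0.0134). The call was lost in DESeq2 (adjusted p = 0.0910), with only the 4 LPS libraries in the fit (0.105), with each cell thinned to 2000 UMIs (log2 0.83, adjusted p = 0.0941) and without young LPS 1 (log2 0.51, adjusted p = 0.167). Nkx2-1 had a log2 fold change of −0.25 (95% interval −0.45 to −0.04, adjusted p = 0.198), Cebpa of −0.24 (0.539) and Etv5 of −0.20 (0.83). Foxa1 and Foxa2 were at 0.03 and −0.02. Without old LPS 2, the LPS library with the most cells in control clusters, Nkx2-1 (−0.37), Etv5 (−0.81) and Cebpa (−0.57) were lower in old than in young mice after LPS. That fit holds a single old LPS library, which is assumed to vary like the other groups.

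The difference of the LPS effects between ages was tested directly, and no factor was called, against 0.694% of genes (0.343% higher and 0.352% lower). For Sox4 the effect was 0.53 ± 0.17 less negative in old mice (95% interval 0.18 to 0.89, adjusted p = 0.222). For Nkx2-1 it was −0.29 (adjusted p = 0.499), for Foxa1 −0.37 (0.673), for Foxa2 −0.28 (0.561), for Etv5 −0.08 (0.976) and for Cebpa −0.09 (0.939). Without old LPS 2, Nkx2-1 (−0.41, adjusted p = 0.0340) and Etv5 (−0.69, 0.00124) passed the threshold, again with old LPS 1 alone for its group.

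**Figure D3:**
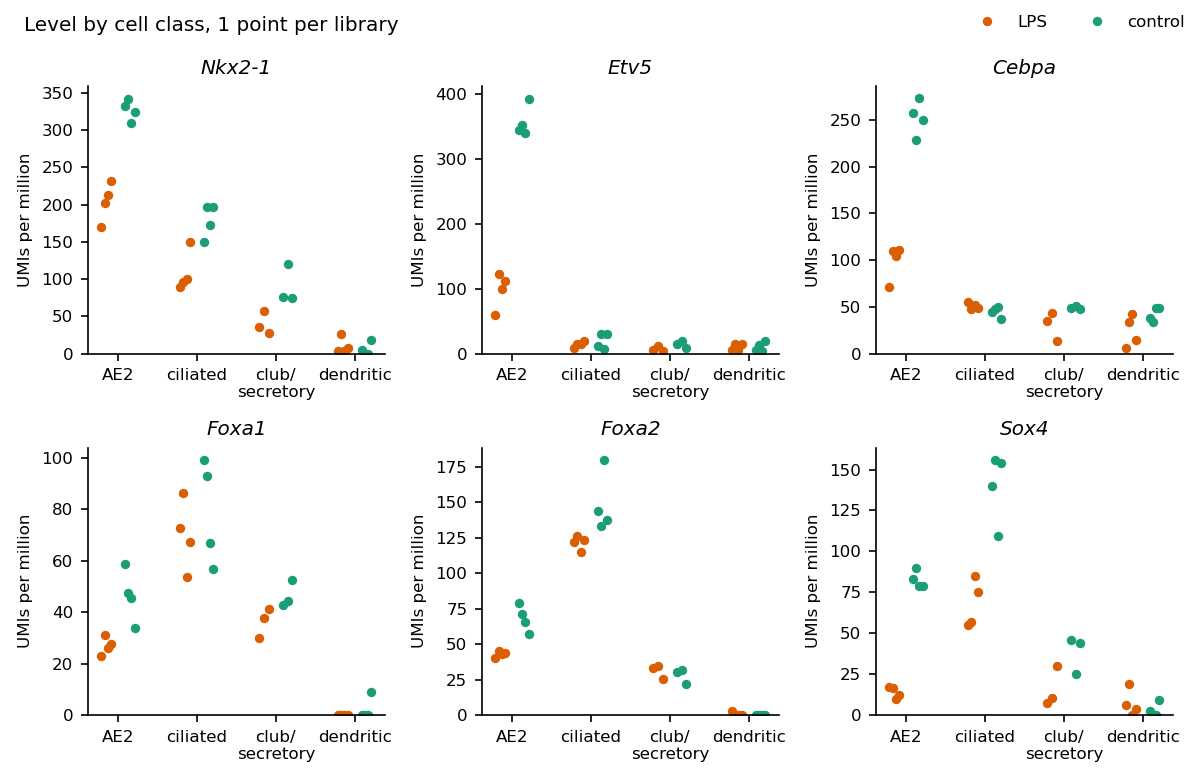
CPM of each factor (y axis) in AE2-like, ciliated-like, club/secretory-like and dendritic-like cells, with 1 point per library holding at least 10 cells of the class, LPS libraries left of control libraries. Etv5 and Cebpa stand highest in AE2-like cells, while Foxa1, Foxa2 and Sox4 stand highest in ciliated-like cells.

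Levels by cell class are given as a description, since the classes were made from the same cells. The sort also held 904 ciliated-like cells (52 to 266 per library) and 187 club/secretory-like cells, of which 6 libraries had at least 10. Etv5 averaged 228 ± 141 CPM in AE2-like cells (SD, n = 8 libraries), against 16.8 ± 9.0 CPM in ciliated-like, 10.8 ± 5.6 CPM in club/secretory-like and 10.3 ± 5.9 CPM in dendritic-like cells. The airway classes were thus near the level of the dendritic-like cells and did not differ beyond their spread. Alveolar macrophage-like and monocyte/macrophage-like cells were more spread out, at 30.8 ± 27.2 CPM (n = 7 libraries) and 37.7 ± 44.0 CPM (n = 4). Cebpa averaged 176 ± 83.5 CPM in AE2-like, 47.6 ± 5.3 CPM in ciliated-like and 39.9 ± 13.9 CPM in club/secretory-like cells. It was also found in monocyte/macrophage-like (109 CPM) and alveolar macrophage-like cells (99.3 CPM), in which it is a known myeloid factor.

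Nkx2-1 averaged 266 ± 68.6 CPM in AE2-like cells, 144 ± 44.3 CPM in ciliated-like cells, 65.0 ± 33.4 CPM in club/secretory-like cells and 7.82 ± 9.48 CPM in dendritic-like cells. The other 3 factors had the reverse order of the first 2 classes. Foxa1 averaged 36.7 ± 12.6 CPM in AE2-like, 74.3 ± 16.6 CPM in ciliated-like and 41.4 ± 7.5 CPM in club/secretory-like cells. Foxa2 averaged 55.5 ± 14.8 CPM in AE2-like, 135 ± 20.2 CPM in ciliated-like and 29.4 ± 4.9 CPM in club/secretory-like cells, and its lowest ciliated-like library (114.8 CPM) was above its highest AE2-like library (78.8 CPM). Sox4 averaged 48.4 ± 37.0 CPM in AE2-like, 103.9 ± 41.9 CPM in ciliated-like and 27.0 ± 16.1 CPM in club/secretory-like cells. Libraries of the first 2 classes overlapped only across treatments. Ciliated-like cells had 109.5 to 155.7 CPM in controls, against 79.1 to 90.1 CPM in AE2-like cells, and 54.7 to 85.2 CPM after LPS, against 10.0 to 17.3 CPM. The 3 were near 0 in dendritic-like cells, at 1.12, 0.374 and 5.0 CPM.

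In ciliated-like cells 2 of the 6 factors fell after LPS over both ages, Sox4 and Nkx2-1, where 7.71% of 7907 genes were called lower, 9.64% higher and 17.4% in either direction. Sox4 had 85.2 and 75.2 CPM in young LPS and 54.7 and 57.0 CPM in old LPS libraries, against 109.5 and 154 CPM in young control and 139.8 and 156 CPM in old control libraries. The treatments did not overlap, and the log2 fold change was −0.93 ± 0.15 (adjusted p = 3.42e-05). Nkx2-1 had 99.98 and 150.3 CPM in young LPS and 89.2 and 95.8 CPM in old LPS libraries, against 173 and 197 CPM in young control and 149.7 and 196 CPM in old control libraries. Young LPS 2 was slightly above old control 1, so the treatments overlapped. The log2 fold change was −0.63 ± 0.14 (adjusted p = 0.00143, and 0.0681 in DESeq2). The per-cell scale, on which the young AE2-like Nkx2-1 call was lost, was not applied to ciliated-like or club/secretory-like cells. Foxa2 (−0.23, adjusted p = 0.252), Foxa1 (−0.11, 0.732), Etv5 (−0.18, 0.841) and Cebpa (0.26, 0.423) were not called. LPS and control cells lay in different ciliated-like clusters, 453 LPS and 5 control cells in cluster 6 and 65 LPS and 381 control cells in cluster 8. Sftpc, an AE2 transcript, had 2099 to 3572 CPM in ciliated-like LPS sums, against 4366 to 15621 CPM in control sums, and its part in the result was not tested.

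**Figure D4:**
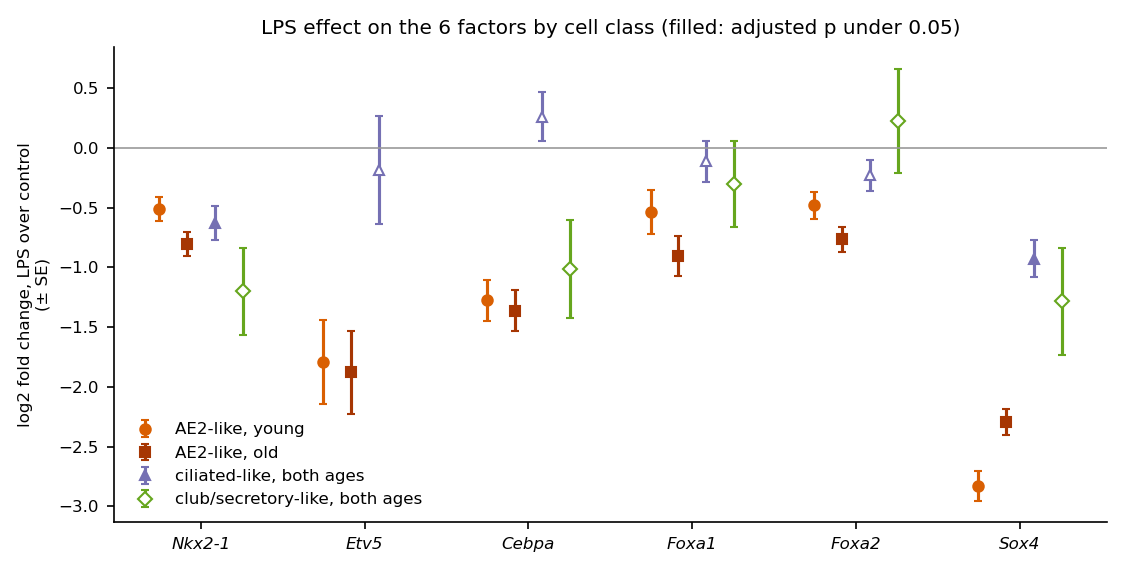
Log2 fold change of LPS over control (y axis, ± SE) of each factor (x axis) in AE2-like cells of young and of old mice and in ciliated-like and club/secretory-like cells of both ages. Filled points have an adjusted p under 0.05. All 12 AE2-like points are filled and negative, while in ciliated-like cells Nkx2-1 and Sox4 are.

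The AE2-like and ciliated-like LPS effects were compared in a single fit with the library as a block, in which 7.93% of 12236 genes had a lower and 5.9% a higher effect in AE2-like cells (13.8% in all). That was so for 5 of the 6 factors. The AE2-like minus ciliated-like difference of log2 fold changes was −1.81 ± 0.21 for Cebpa (adjusted p = 5.52e-10), −1.59 ± 0.23 for Sox4 (3.34e-06), −1.80 ± 0.35 for Etv5 (8.43e-05) and −0.85 ± 0.20 for Foxa1 (0.00154). For Foxa2 it was −0.56 ± 0.17 (0.0156). The Foxa2 call was lost in DESeq2 (adjusted p = 0.0963) and without old control 1 (−0.42, 0.163) or old control 2 (−0.49, 0.0642). Nkx2-1 was not called (−0.13, 95% interval −0.44 to 0.18, adjusted p = 0.657), so its effect in the classes differed by at most 0.44 on the log2 scale at this interval. The ciliated-like level of Etv5, 16.8 CPM, was near the 10.3 CPM of dendritic-like cells.

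In club/secretory-like cells, with 6 libraries and 2 residual degrees of freedom among them, no factor was called, against 5.62% of 3471 genes (4.61% higher and 1.01% lower, 195 in all, with 603 at an unadjusted p under 0.05). Nkx2-1 had 27.5 CPM in young LPS 1 and 35.3 and 56.7 CPM in old LPS, against 74.4 CPM in young control 1 and 76.2 and 119.7 CPM in old control libraries. The treatments did not overlap, and the log2 fold change was −1.20 ± 0.37 (adjusted p = 0.0748). It was called with the lane as a block (−1.20, adjusted p = 0.0113), where 355 genes were. Sox4 had 29.8 CPM in young LPS 1 and 7.46 and 10.3 CPM in old LPS, against 43.7 CPM in young control 1 and 45.7 and 25.2 CPM in old control libraries, a log2 fold change of −1.28 ± 0.45 (adjusted p = 0.135). Young LPS 1 was above old control 2, so the Sox4 values overlapped between treatments. Cebpa (−1.01, adjusted p = 0.203), Foxa1 (−0.30, 0.718) and Foxa2 (0.23, 0.825) were not called, and Etv5 had too few counts to be tested.

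**Figure D5:**
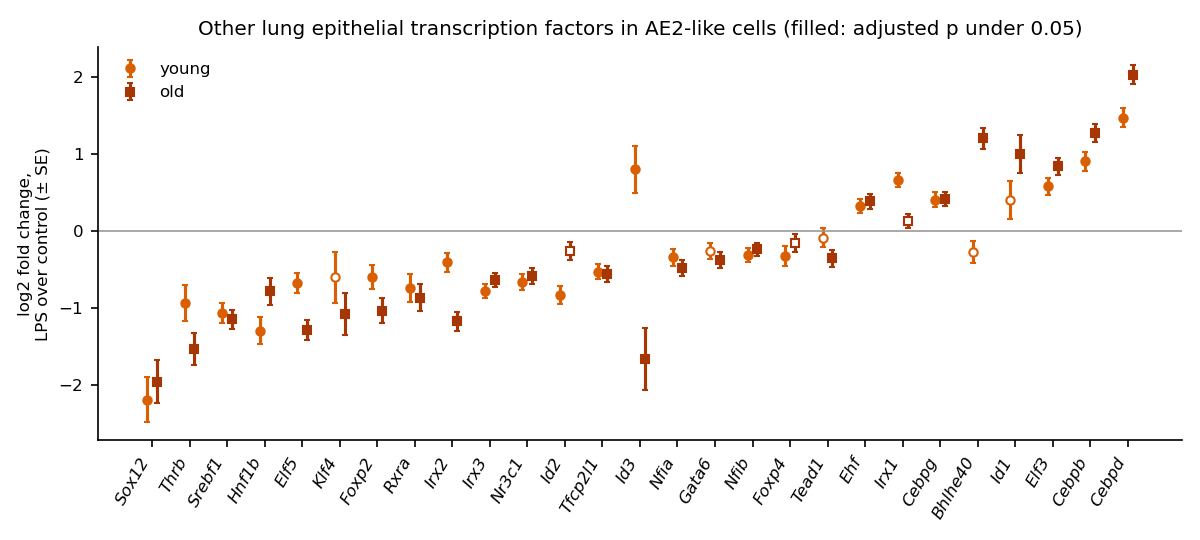
Log2 fold change of LPS over control (y axis, ± SE) in AE2-like cells of young and old mice for the 27 other lung epithelial transcription factors called at either age (x axis, ordered by their mean). Filled points have an adjusted p under 0.05. Cebpd, Cebpb and Elf3 lie above 0 at both ages, and Srebf1, Elf5 and Irx3 below 0.

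Among 37 other lung epithelial transcription factors that could be tested in AE2-like cells, 7 rose and 15 fell in young mice, and 7 rose and 17 fell in old mice. On the scale of UMIs per cell the balance turned, with 9 higher and 4 lower in young mice and 9 higher and 7 lower in old mice. Over all genes called on that scale, 84.27% were higher in young and 83.55% in old mice, so the turn is not particular to this list. Their median log2 fold change was −0.26 in young and −0.38 in old mice, against −0.01 over all genes at both ages, and turned to 0.11 and 0.02 on the scale of UMIs per cell, where the median gene was at 0.35 and 0.39. Cebpd, a leucine-zipper paralog of Cebpa linked to acute-phase responses, rose by 1.47 in young and 2.03 in old mice, and Cebpb, another paralog, by 0.90 and 1.27, the opposite direction to Cebpa. Elf5, an ETS-family epithelial factor like Etv5, fell by 0.68 in young and 1.29 in old mice. Srebf1, a regulator of lipid synthesis, fell by 1.07 in young and 1.15 in old mice and Irx3, an Iroquois homeodomain factor, by 0.78 and 0.64.

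Genes of related programs were counted in the same fits. On the scale of UMIs per cell the genes named for LPS in these lists kept their signs, apart from Sftpc, which was not read on it. The falls of Irx3, Spry2 and Aqp5 at both ages, Elf5, Fgfr2 and Lrp6 in young mice and Vegfa and Lmo7 in old mice were no longer called there. As the counts of each list moved with the scale, they are given on both. Per cell, 4788 of all 11378 genes were called in young mice (84.27% of them higher) and 5561 in old mice (83.55% higher). Of 21 surfactant and AE2 genes, 13 fell and 4 rose at each age, with a median log2 fold change of −0.63 in young and −0.88 in old mice (−0.27 and −0.47 per cell). Per cell, 8 were lower and 5 higher in young mice and 12 lower and 6 higher in old mice. S100g, a calcium-binding protein gene of AE2 cells, fell by 2.30 in young and 2.12 in old mice. Chil1, a chitinase-like protein gene, rose by 1.64 and 1.71, Ctsh, a protease of surfactant processing, rose by 1.43 and 1.44, and Sftpd, a collectin, by 1.39 and 1.65. These genes were picked by p and do not mirror the list, in which 13 fell and 4 rose. Sftpc, named for its level, fell by 2.40 in young mice. It averaged 46480 CPM in young LPS and 245000 CPM in young control libraries, and 57930 and 226900 CPM in old LPS and old control libraries. Of 20 genes of FGF-ERK signalling and its feedback, in which Etv5 acts, 11 fell and 2 rose in young mice and 11 fell and 3 rose in old mice (medians −0.54 and −0.62, and −0.17 and −0.22 per cell). Per cell, 6 were lower and 4 higher in young mice and 6 lower and 7 higher in old mice, so that the balance turned in old mice. The receptor gene Fgfr2 fell by 0.75 in young and 1.12 in old mice and the feedback inhibitor gene Spry2 by 0.46 and 0.57, while Phlda1 rose by 0.64 and 1.36.

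Of 23 genes of TGF-beta and Wnt signalling, which is known to act on Sox4 in other epithelia, 10 fell and 2 rose in young mice, and 13 fell and 2 rose in old mice (medians −0.45 and −0.61, and −0.08 and −0.21 per cell). Per cell, 4 were lower and 4 higher in young mice and 7 lower and 4 higher in old mice. Ctnnb1, which encodes beta-catenin, fell by 0.96 in young and 0.85 in old mice and the co-receptor gene Lrp6 by 0.79 and 0.95. Skil, a feedback inhibitor gene of SMAD signalling, rose by 0.61 and 0.79. Of 16 genes of the alveolar type I program, 4 rose and 4 fell in young mice and 1 rose and 7 fell in old mice (medians 0.01 and −0.23, and 0.37 and 0.17 per cell). Per cell, 6 were higher and 1 lower in young mice and 4 higher and 2 lower in old mice, on a scale where most called genes were higher. The young count of 4 in each direction is near the share over all genes, 21.9% higher and 18.4% lower. Vegfa, a growth factor gene, fell by 1.26 in young and 0.70 in old mice, and Aqp5, a water channel gene, by 0.42 and 0.46. Clic5 rose by 0.92 and Gprc5a by 0.48 in young mice, and had log2 fold changes of 0.42 and 0.09 in old mice, not called. Lmo7 fell by 0.74 in old mice and was at 0.01 in young mice. Of 16 transitional alveolar epithelium genes, 5 rose and 0 fell in young mice, and 11 rose and 1 fell in old mice (medians 0.52 and 1.22, and 0.88 and 1.61 per cell). Per cell, 11 were higher and 0 lower in young mice and 14 higher and 0 lower in old mice. Clu, an extracellular chaperone gene, rose by 2.14 in young and 3.43 in old mice and Cdkn1a, a cell-cycle inhibitor gene, by 1.99 and 1.14. Itgb6, an epithelial integrin gene, rose by 2.78 in young and 3.44 in old mice. The keratin gene Krt18 rose by 0.91 in old mice and was at 0.18 in young mice, not called.

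Areg and Hbegf are in both the FGF-ERK and the transitional list, and Hopx in both the transcription factor and the type I list. Between old and young controls 2 genes of these lists were called. After LPS, 5 of 16 transitional genes (4 higher, 1 lower), 4 of 16 type I genes (1 higher, 3 lower), 3 of 37 transcription factors, 2 of 20 FGF-ERK genes, 2 of 23 TGF-beta and Wnt genes and 0 of 21 surfactant and AE2 genes were called between ages, against 4.02% of all genes. Per cell, 8 transitional genes were higher and 1 lower, where 462 of all genes were called, 74.7% of them higher. In old against young controls Bhlhe40, a circadian and stress-linked repressor gene, was lower by a log2 fold change of −0.76 and Sftpd by −0.51, and neither was called per cell (adjusted p = 0.0563 and 0.498). In old against young mice after LPS, Bhlhe40 (0.71), Spred1 (0.41), Ahnak (0.46) and Krt18 (0.37) were higher and Cdkn1a (−0.87), Col4a4 (−0.62) and Nkd1 (−0.45) were lower. The calls of Col4a4, Krt18 and Nkd1 were lost per cell.

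The genes whose pattern over the 8 AE2-like libraries was most like that of each member were found by the root mean square difference of gene-centred log2 CPM, among 4567 genes with at least 20 CPM. For Nkx2-1 they were Scarf2 (0.040), Ppm1b (0.042) and Selenoh (0.054). For Cebpa they were Atp8a1 (0.067), Cadm1 (0.080) and Acly (0.083), a lipid synthesis gene, and for Etv5 Ang (0.082), Gpt (0.109) and Mettl7a1 (0.111). Foxa2 was nearest to Blcap (0.061), Aaed1 (0.061) and Prkd3 (0.062), and Foxa1 to Bex4 (0.095), Eif4b (0.109) and its paralog Foxa2 (0.124). For Sox4 the nearest were Adamts1 (0.178), S100g (0.261) and the surfactant gene Sftpc (0.281). Its differences are the largest, but so is its range over the libraries, with which such a difference can grow. That range was 3.15 on the log2 scale, against 0.97 for Foxa2 to 2.72 for Etv5. These are likenesses over libraries that share the LPS contrast and are given without a test.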

How the data were processed

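The deposited values are UMI counts per gene and cell, with no normalization, in 1 table for each of the 8 hashed libraries. Per the submitters' processing notes the tools were bcl2fastq, Cell Ranger 3.1.0, STAR, Seurat 3.1 and 3.1.5 and R 3.6.3, with genome build mm10. The 10x libraries and cell hashing are as described in the labels' protocols.

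Barcodes with at least 500 genes and at most 20% mitochondrial UMIs were kept (11245 of 14048). Scrublet called 12 doublets, too few to have worked, and their removal left 11233 cells. An alternative left out the top 3% of its scores. Cells were clustered with scanpy 1.11.5 (2000 variable genes, 30 principal components, 20 neighbours, Leiden resolution 1) and clusters named by markers. Counts were summed per library and class (4186148 to 12765997 UMIs in AE2-like sums) and tested in R 4.3.3 with edgeR 4.0.16 (filterByExpr, TMM, robust quasi-likelihood, Benjamini-Hochberg), all 4 groups in 1 fit. Library sums, not cells, were the replicates, and ± after a log2 fold change is the standard error. The fit was tested on simulated data. Intervals on pooled counts cover counting error only.

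The replicate number is the lane and the repeat of the experiment, per the labels, so it pairs the libraries. Same-numbered libraries had correlations of their deviations from −0.03 to 0.16 over 12 pairs. The values were the same in both lanes, since the deviations of a group's libraries from their mean mirror each other. The lanes are thus not independent evidence on the pairing. The fit with the lane as a block is given where it changed a call. Each list names up to 3 called genes with the smallest p and at least 20 CPM, and any other transcription factor with a called interaction. Sftpc is named for its level. The members, lists and tests were chosen with earlier results of these data known. Alternatives were DESeq2 1.42.0, its size factors, other filters, resolution 0.5, thinning, dropping the 10 most abundant genes, leaving out each library, and a per-cell scale. Sequences and motifs come from RefSeq promoter tables.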

Additional observations from a re-analysis of the deposited data

Results flagged for a closer look

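5 members had an LPS effect that differed between AE2-like and ciliated-like cells by the direct test of that difference. The AE2-like minus ciliated-like difference of log2 fold changes was −1.80 for Etv5, −1.81 for Cebpa, −1.59 for Sox4, −0.85 for Foxa1 and −0.56 for Foxa2. Nkx2-1, at −0.13, did not meet the threshold. The Foxa2 call was lost in DESeq2 and without old control 1 or old control 2. In ciliated-like cells Etv5 was near its level in dendritic-like cells, which leaves little room for a fall there.

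Among genes of the lists, 4 had an LPS effect in AE2-like cells that differed between old and young mice by the interaction test. Id3, an inhibitor of helix-loop-helix factors, differed by −2.47 (edgeR adjusted p = 0.0411), with a log2 fold change of −1.67 in old mice and 0.80 in young mice. Its level was low throughout, at 1.25 CPM in old LPS and 4.01 CPM in old control libraries, and 9.39 CPM in young LPS and 5.24 CPM in young control libraries. Bhlhe40 differed by 1.48 (adjusted p = 0.00290), with 1.20 in old mice and −0.28 in young mice, the second not called. Clu differed by 1.29 (adjusted p = 0.0413), with 3.43 in old and 2.14 in young mice. Krt18 differed by 0.73 (adjusted p = 0.0248), with 0.91 in old and 0.18 in young mice, the second not called, and the difference was not called on the scale of UMIs per cell (0.76, adjusted p = 0.183).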

How the results depend on the processing

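No single member changed direction while called. On the per-cell scale the balance of higher and lower called genes turned for age and for some of the lists, as given above. Of 840 alternative values of single members, 811 stayed on their side of the threshold, 21 lost a call and 8 gained one. The replicate block (lane) ended the young Foxa1 call (adjusted p = 0.0597) and raised the genes called in club/secretory-like cells from 195 to 355, with 1 member (Nkx2-1) in place of 0, and changed no other member call. The test between classes already holds the library as a block.

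In DESeq2 the genes called were 2835 in place of 4583 for LPS in young mice, 3443 in place of 5511 in old mice, 40 in place of 71 for age in controls and 195 in place of 457 after LPS. They were 559 in place of 1372 in ciliated-like cells (70.1% higher in place of 55.5%), 82 in place of 195 in club/secretory-like cells and 1033 in place of 1692 between classes. After thinning to 2000 UMIs they were 2383, 2935, 24 and 134 in the first 4 of these, and 24 in place of 79 for the interaction. Without the low-count filter they were 254 and 876 for age in controls and after LPS, 305 for the interaction and 295 in club/secretory-like cells. With only the 4 libraries of a comparison they were 347 and 131 for age. At resolution 0.5 they were 392 in club/secretory-like cells, 1 member (Nkx2-1, −1.14, adjusted p = 0.0240) was called there, and Etv5 averaged 3.63 CPM, against 10.8 CPM. On the per-cell scale, added after seeing the data, 118 were called for age in controls and 3 members in place of 6 for LPS in young mice. Members higher in old than young mice after LPS were 0 in place of 1 in DESeq2, after thinning and with 4 libraries, and members lower in ciliated-like cells were 1 in place of 2 in DESeq2. Thinning also ended the young Foxa1 call (adjusted p = 0.0969).

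Leaving out each library in turn gave 2906 to 5289 genes and 4 to 6 members lower for LPS in young mice, and 3872 to 5947 genes and 6 members in old mice. For age it gave 6 to 274 genes in controls, and 162 to 1646 genes, 0 to 1 members higher and 0 to 3 lower after LPS. It gave 9 to 746 genes and 0 to 2 members lower for the interaction, 945 to 1541 genes and 2 members lower in ciliated-like cells, 115 to 298 genes and 0 to 1 members lower in club/secretory-like cells, and 1265 to 1705 genes and 4 to 5 members lower between classes. Where this leaves a group with 1 library, that library is assumed to vary like the other groups. In club/secretory-like cells Nkx2-1 was called without old LPS 2 (−1.36, adjusted p = 0.0251). Where leaving out a library moves a call the cause was not tested. The smallest club/secretory-like sum tested held 158727 UMIs, from 10 cells.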

Other observations

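Sox12, a SOX-family paralog of Sox4, was also lower after LPS in AE2-like cells, and is named here after its values were seen. It averaged 1.67 CPM in young LPS libraries and 7.56 CPM in young control libraries, a log2 fold change of −2.19 ± 0.30 (edgeR adjusted p = 2.31e-05). In old mice it averaged 1.62 CPM after LPS and 6.52 CPM after saline, a log2 fold change of −1.96 ± 0.28 (adjusted p = 2.77e-05). Its level in control libraries was far below that of Sox4.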
